A study of Mus musculus with 12 samples.

Results

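The genes described here are 9 genes of the regenerative, fetal-like state of the intestinal epithelium and of YAP signalling, namely *Clu*, *Ly6a*, *Anxa1*, *Anxa3*, *Areg*, *Ereg*, *Yap1*, *Wwtr1* and *Msln*. They were chosen by name, with no measured value in the rule but with earlier results of these data known. All 9 were found by symbol among the 54232 genes of the count table. The cells were intestinal stem cells (ISCs) from the small intestine of female mice, and 3′ RNA-seq libraries, which read the end of each polyadenylated transcript, were made from 1 mouse each. The 12 libraries form 4 groups of 3, and the study used them to ask whether ISCs change with age in a common way in both isolations. SM6 young (2 months) and SM6 old (22 months) came from wild-type C57/Bl6 mice with no reporter, and SM6 stands for a sort on surface markers. Lgr5-GFP young (2 months) and Lgr5-GFP old (22 months) came from mice of the Lgr5-EGFP-IRES-CreERT strain (CreERT2 in the study's methods), in which the *Lgr5* locus drives GFP and an inducible Cre, and no induction or floxed allele is named in the labels. The labels give the marker sort for every library. The study's results treat the reporter strain and SM6 as separate isolation models, and a supplementary legend describes a GFP sort for the reporter mice. SM6 and Lgr5-GFP thus differed in strain and, by the study's account but not its labels, also in isolation. The parts of these in a difference between them cannot be told apart.

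YAP (encoded by *Yap1*) and TAZ (encoded by *Wwtr1*) are transcriptional coactivators that have no DNA-binding domain of their own and act through TEAD factors. The MST kinases of the Hippo pathway activate the LATS kinases, which phosphorylate YAP and TAZ and keep them out of the nucleus, so their activity is set largely after transcription. In damaged intestinal epithelium, YAP is known to be needed for a transient state in which crypt cells express genes of the fetal gut, among them *Ly6a* (Sca-1), *Anxa1*, *Anxa3*, *Clu* (clusterin, a marker of rare revival stem cells) and *Msln* (mesothelin, otherwise a mesothelial surface protein). *Areg* and *Ereg* encode amphiregulin and epiregulin, ligands of the EGF receptor and known YAP targets.

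The members lie on 7 chromosomes of GRCm38, and all are protein-coding. *Yap1* is at chr9:7931999-8004596 and *Wwtr1* at chr3:57455649-57575910, both on the minus strand. *Ereg* (chr5:91074622-91093646) and *Areg* (chr5:91139599-91148432) are neighbours on the plus strand of chromosome 5 with 45952 bases between them, and *Anxa3* lies further along the same chromosome at chr5:96793339-96845966, also on the plus strand. *Clu* is at chr14:65968483-65981547 on the plus strand. *Ly6a* (chr15:74994877-74998031), *Anxa1* (chr19:20373428-20390944) and *Msln* (chr17:25748613-25754378) are on the minus strand.

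Promoter sequence from RefSeq (GRCm38.p6) was at hand for 4 of the 9 members, *Yap1*, *Wwtr1*, *Areg* and *Anxa1*. The 250 bases before the RefSeq start are shown for the 3 of them that could be tested, because they allow the core letters of the TEAD motif to be looked for in the genes of the coactivators themselves and in a gene known as a target. Capitals mark GGAATG or, on the other strand, CATTCC.
Yap1, chr9:8004597-8004846, minus strand: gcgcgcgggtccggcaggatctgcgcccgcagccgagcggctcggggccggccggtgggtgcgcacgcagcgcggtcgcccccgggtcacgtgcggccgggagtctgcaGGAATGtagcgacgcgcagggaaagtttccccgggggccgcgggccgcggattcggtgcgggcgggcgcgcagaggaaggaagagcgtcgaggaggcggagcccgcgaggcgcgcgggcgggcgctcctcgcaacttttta
Wwtr1, chr3:57575911-57576160, minus strand: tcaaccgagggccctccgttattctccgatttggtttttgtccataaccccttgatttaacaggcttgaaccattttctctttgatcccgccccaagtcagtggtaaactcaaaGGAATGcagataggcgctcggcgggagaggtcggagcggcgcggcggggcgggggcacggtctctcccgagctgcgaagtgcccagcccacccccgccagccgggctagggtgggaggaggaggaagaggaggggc
Areg, chr5:91139349-91139598, plus strand: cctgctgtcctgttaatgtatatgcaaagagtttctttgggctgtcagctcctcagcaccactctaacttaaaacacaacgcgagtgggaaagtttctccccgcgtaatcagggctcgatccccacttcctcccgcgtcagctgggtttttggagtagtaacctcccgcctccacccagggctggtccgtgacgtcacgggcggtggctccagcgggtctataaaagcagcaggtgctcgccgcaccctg
The letters GGAATG began 141 bases before the start of *Yap1* and 136 bases before that of *Wwtr1*, and neither strand of the *Areg* window held them. In *Anxa1* (chr19:20390672-20390921, minus strand) CATTCC began 236 bases before the start. Of 32851 mouse promoter windows of this length, 12.6% held these letters on either strand, so a match is a description of the window and not a binding site.

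The libraries held 970472 to 3815425 counts (median 1424340). The floor, the level that 3 counts would give and below which a count of 0 cannot exclude a gene, lay between 0.945 CPM (counts scaled to a common library total) in Lgr5-GFP young replicate 1 and 2.89 CPM in Lgr5-GFP old replicate 3. Intervals and floors cover counting error only. All 10 ISC markers on a fixed list, *Lgr5* and *Olfm4* among them, were detected, and their summed level in SM6 was 12387 to 15414 CPM at 2 months and 7712 to 8902 at 22 months, and in Lgr5-GFP 12149 to 13806 and 10072 to 11411 CPM. Most of each sum was *Olfm4*, with 9320 to 11904 and 5397 to 6552 CPM in SM6 and 9378 to 10968 and 7431 to 8885 in Lgr5-GFP. *Lgr5* had 311 to 356 and 235 to 287 CPM in SM6 and 217 to 305 and 217 to 246 in Lgr5-GFP. Other cell types were also represented. Paneth cell markers (8 of 8 detected) summed in SM6 to 10538 to 67211 CPM at 2 months and 43416 to 268839 at 22 months, and in Lgr5-GFP to 42914 to 241989 and 18028 to 30665 CPM. In the same order, goblet cell markers (7 of 7) summed to 5705 to 9116, 17307 to 18224, 5298 to 13740 and 3153 to 5495 CPM. In sorted bulk cells, fewer cells of a type and less RNA per cell cannot be told apart.

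Most of the 9 genes were at or near the limit of detection in ISCs of either age. *Yap1* alone was well above the floor in every library. *Msln* had 0 counts in all 12 libraries, *Ly6a*, *Anxa1* and *Ereg* had between 3 and 7 counts in all, and *Clu*, *Wwtr1*, *Anxa3* and *Areg* ranged from 0 counts to a highest single-library count of 31, 16, 13 and 7. After the filter on low counts (more than 5 reads and at least 1 CPM in at least 1 library) 5 members remained for testing, and *Ly6a*, *Anxa1*, *Ereg* and *Msln* did not pass. *Areg* passed only through 2 Lgr5-GFP young libraries with 7 and 6 counts, and *Anxa3* only through 2 SM6 old libraries (7 and 13 counts) and 1 Lgr5-GFP young library (7 counts). These 5 are therefore not a sample of the 9.

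**Figure D1:**
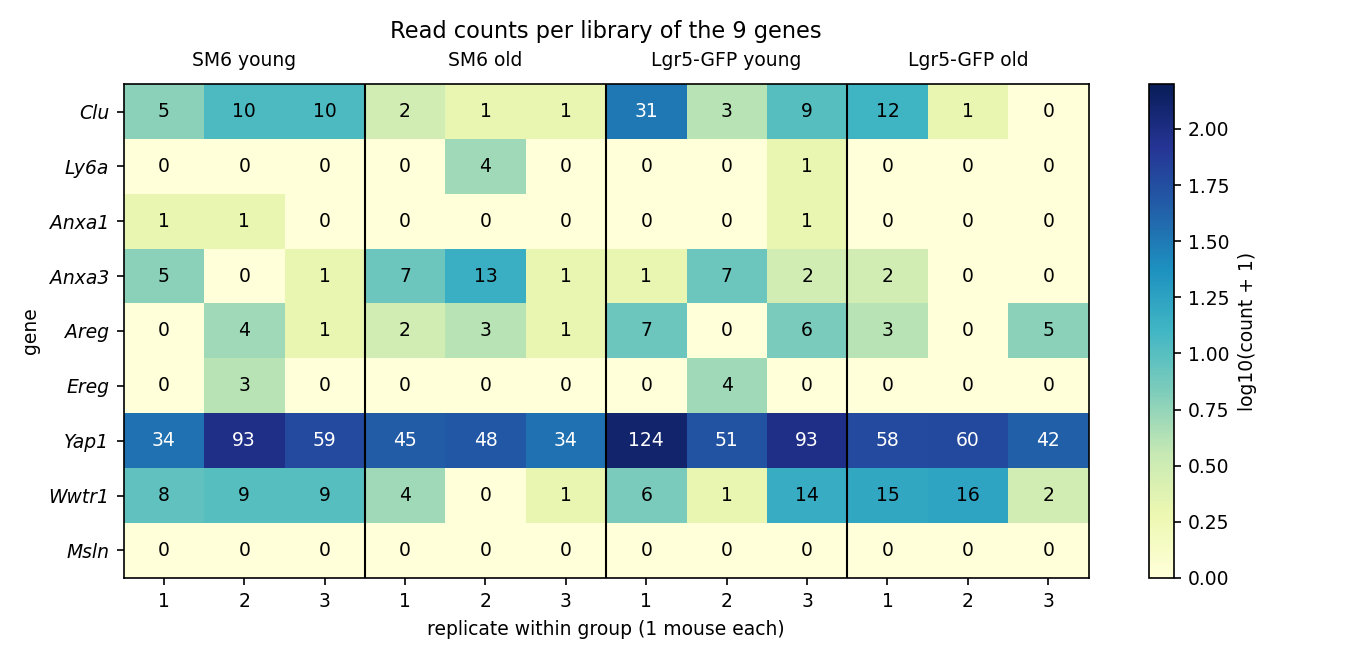
Read counts of the 9 genes (rows) in each of the 12 libraries (columns, replicates 1 to 3 of each group, 1 mouse each), with the count printed in each cell and the colour on a log10(count + 1) scale. *Yap1* had 34 to 124 counts in every library, *Msln* had 0 in all of them, and *Ly6a*, *Anxa1* and *Ereg* were at 0 in most.

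None of the 5 tested members was called (edgeR's quasi-likelihood test with Benjamini-Hochberg adjustment over 13368 genes, adjusted p under 0.05) in any of the 6 comparisons. Over all genes tested, 2.42% were called for old against young in SM6, 0.471% in the Lgr5-GFP isolation and 2.66% for the mean of both age effects, 0.658% for the difference between the 2 age effects, 0.0898% for Lgr5-GFP against SM6 at 2 months and 0.718% at 22 months. At an unadjusted p under 0.05 there were 2 of the 5 members for age in SM6 (13.1% of all genes), 0 in Lgr5-GFP (9.79%), 1 on average (12.8%), 1 for the difference (9.43%), 0 at 2 months (7.47%) and 2 at 22 months (9.4%). The likelihood ratio test of edgeR, limma voom and edgeR without the filter on low counts also called 0 of the members in each comparison. DESeq2 called 0 too, but gave an adjusted p for only 1 to 5 of them, depending on the comparison.

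Few genes at the level of these members were called. Of the genes with a mean under 10 CPM over the 12 libraries, as *Clu*, *Wwtr1*, *Anxa3* and *Areg* had, 0.278% were called for age in SM6 and 0.0397% in Lgr5-GFP, and the smallest called differences were 3.05-fold and 7.20-fold. Of the genes with a mean of 20 to 80 CPM, where *Yap1* lay, 3.05% and 0.512% were called, with smallest called differences of 1.67-fold and 1.87-fold. These values are not detection limits, since the fitted differences of *Clu*, *Wwtr1* and *Anxa3* for age in SM6, given below, were larger than 3.05-fold and were not called.

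*Yap1*, the coactivator that Hippo signalling restrains, was present in all libraries at both ages. Its level was 20.6, 51.5 and 42.6 CPM in SM6 young (38.3 ± 15.9, mean ± SD, n = 3), and 35.1, 32.6 and 27.2 CPM in SM6 old (31.6 ± 4.04, n = 3). In Lgr5-GFP young it was 39.1, 48.2 and 38.5 CPM (41.9 ± 5.45, n = 3), and in Lgr5-GFP old 38.7, 48.8 and 40.5 CPM (42.7 ± 5.40, n = 3). SM6 young spanned the widest range and took in all 3 SM6 old libraries, and the Lgr5-GFP groups overlapped almost entirely. Old against young, the log2 fold change was -0.28 in SM6 (95% interval -0.84 to 0.28, edgeR adjusted p = 0.750) and 0.042 in Lgr5-GFP (-0.50 to 0.58, edgeR adjusted p = 0.983). On average over both isolations it was -0.12, and the interval of -0.51 to 0.27 leaves room for smaller changes in either direction. Without SM6 young replicate 2, which had the highest level, the SM6 value was 0.016, and without SM6 young replicate 1, which had the lowest, it was -0.58.

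Ordered by mean level, the groups ran from SM6 old through SM6 young and Lgr5-GFP young to Lgr5-GFP old, and each mean lay within 1 SD of its neighbour, taking the larger SD of the pair. At 22 months the *Yap1* levels of the 2 isolations did not overlap, 27.2 to 35.1 CPM in SM6 and 38.7 to 48.8 CPM in Lgr5-GFP, as was the case for 13.5% of all genes tested in that comparison. The difference was 0.43 on the log2 scale (-0.14 to 1.00, edgeR adjusted p = 0.682), and the summed counts were 1.34 times as high in Lgr5-GFP (160 against 127, 1.06 to 1.71 from counting error alone). At 2 months it was 0.11 (-0.42 to 0.64, edgeR adjusted p = 0.957). The difference between the 2 age effects was 0.32 (-0.46 to 1.10, edgeR adjusted p = 0.857). With the share of defensin counts as a covariate, this difference was -0.28 and the age effect in Lgr5-GFP was -0.32, neither of them called.

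*Wwtr1*, the partner of *Yap1* in the pathway, had opposite orders of the age groups in the 2 isolations, but at a level of a few counts per library. SM6 young had 8, 9 and 9 counts (5.45 ± 0.916 CPM, n = 3) and SM6 old 4, 0 and 1 (1.31 ± 1.62 CPM, n = 3), so the 2 ages did not overlap. Lgr5-GFP young had 6, 1 and 14 counts (2.88 ± 2.57 CPM, n = 3) and Lgr5-GFP old 15, 16 and 2 (8.31 ± 5.73 CPM, n = 3), and here they did. Libraries that do not overlap were found for 17.5% of all genes in the SM6 age comparison. Fitted log2 fold changes for age were -2.04 in SM6 (edgeR adjusted p = 0.311) and 1.44 in Lgr5-GFP (edgeR adjusted p = 0.522).

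Summed over the 3 libraries of a group and scaled, *Wwtr1* counts were 4.31 times as high in SM6 young as in SM6 old (26 against 5 counts, 95% interval from counting error alone 1.63 to 14.4). In Lgr5-GFP they were 2.77 times as high in old as in young (33 against 21 counts, 1.56 to 5.04). The difference between the 2 age effects was 3.47 ± 1.14 on the log2 scale (estimate ± SE), with an unadjusted p of 0.0056 in edgeR and an edgeR adjusted p of 0.267. At 22 months *Wwtr1* was 2.68 ± 0.866 higher on the log2 scale in Lgr5-GFP than in SM6 (edgeR adjusted p = 0.232), and at 2 months the value was -0.79 (edgeR adjusted p = 0.852). The spread among the 3 Lgr5-GFP old libraries, 10.0, 13.0 and 1.93 CPM, was wide beside these differences. Leaving out each library in turn moved the *Wwtr1* value from 2.86 (without SM6 old replicate 2) to 5.04 (without SM6 old replicate 1) for the difference between the age effects, and from 2.07 to 4.27 at 22 months without the same libraries. For age in SM6 it ranged from -3.60 to -1.42, again without SM6 old replicates 1 and 2, and in Lgr5-GFP from 1.01 (without old replicate 2) to 2.37 (without young replicate 3). With the share of defensin counts, a Paneth cell product, as a covariate, the values were smaller, 1.88 for the difference, 0.44 for age in Lgr5-GFP and 1.91 at 22 months.

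**Figure D2:**
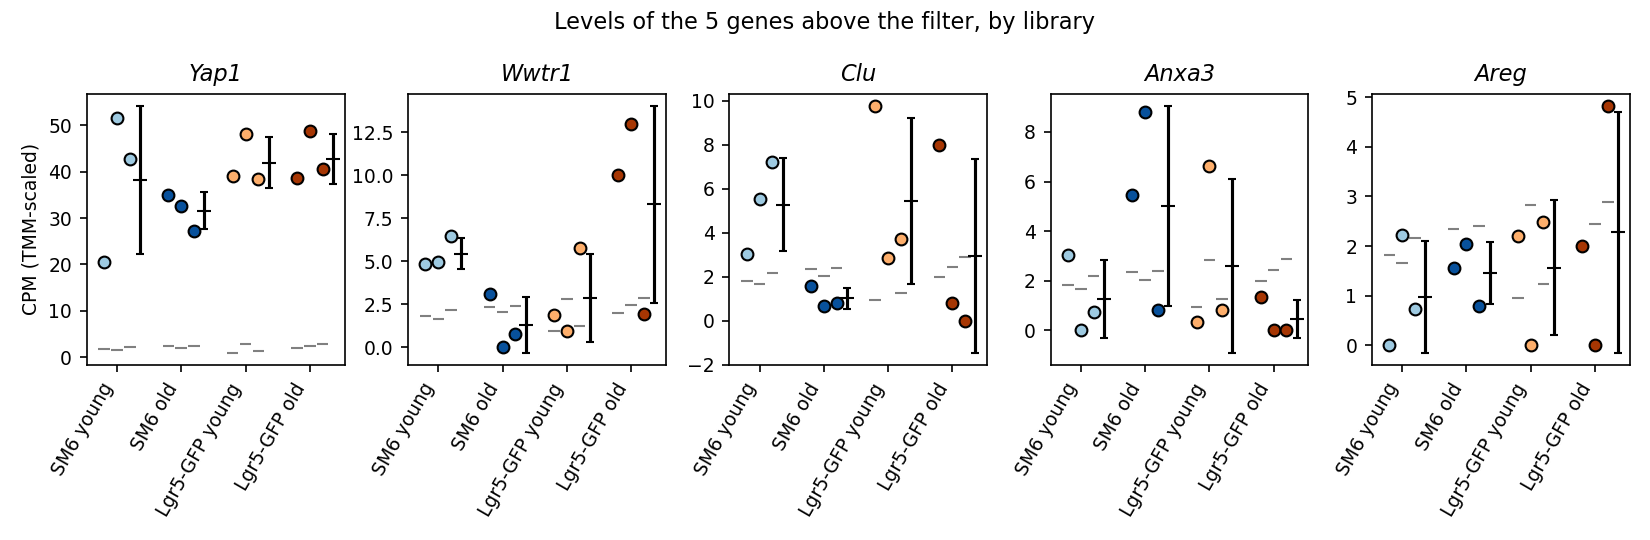
TMM-scaled CPM of the 5 tested genes in each library (points, replicates 1 to 3 from left to right in each group), with the mean and SD of 3 libraries (black) and the level of 3 counts in each library (grey ticks). *Yap1* stood above the floor in all 12 libraries, and points of the other 4 genes fell below it in every panel.

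*Clu* had 85 counts over 11 of the 12 libraries, the same total and number of libraries as *Wwtr1*. SM6 young had 5, 10 and 10 counts (3.03, 5.54 and 7.23 CPM) and SM6 old had 2, 1 and 1 (1.56, 0.679 and 0.799 CPM). The 2 ages did not overlap, as for 17.5% of all genes, and all 3 SM6 old libraries were under the floor of 3 counts. Lgr5-GFP young had 31, 3 and 9 counts (9.77, 2.84 and 3.73 CPM), and Lgr5-GFP old had 12, 1 and 0 (8.00, 0.813 and 0 CPM). In the reporter mice the old libraries thus ranged from 0 to a level close to the highest young library.

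Summed *Clu* counts were 5.18 times as high in SM6 young as in SM6 old (25 against 4, 1.79 to 20.5 from counting error alone) and 1.87 times as high in Lgr5-GFP young as in Lgr5-GFP old (43 against 13, 0.989 to 3.80). Fitted log2 fold changes for age were -2.30 ± 0.960 in SM6 (edgeR adjusted p = 0.282), -0.83 ± 0.770 in Lgr5-GFP (edgeR adjusted p = 0.798) and -1.56 ± 0.617 on average (edgeR adjusted p = 0.247). The *Clu* values depended on single libraries. For age in Lgr5-GFP, the value was -0.067 without young replicate 1 and -3.51 without old replicate 1, and it stayed uncalled. The average gained a call. Without Lgr5-GFP old replicate 1, which held 12 of the 13 counts of its group, the average was -2.91 with an edgeR adjusted p of 0.0317. *Clu* is also expressed by other cells of the crypt, and the library with 31 counts, Lgr5-GFP young replicate 1, had the highest summed tuft cell markers (47.6 CPM, against 1.56 to 24.0 CPM in the other 11, 6 of 6 markers detected) and 1 of the 2 highest Paneth cell sums (241989 CPM). SM6 old replicate 3, with the highest Paneth cell sum (268839 CPM) and the next highest tuft cell sum (24.0 CPM), had 1 *Clu* count. Lgr5-GFP old replicate 1, with 12 counts, had 8.00 CPM of tuft and 18028 CPM of Paneth cell markers. The part of these cell types in the *Clu* counts was not tested.

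**Figure D3:**
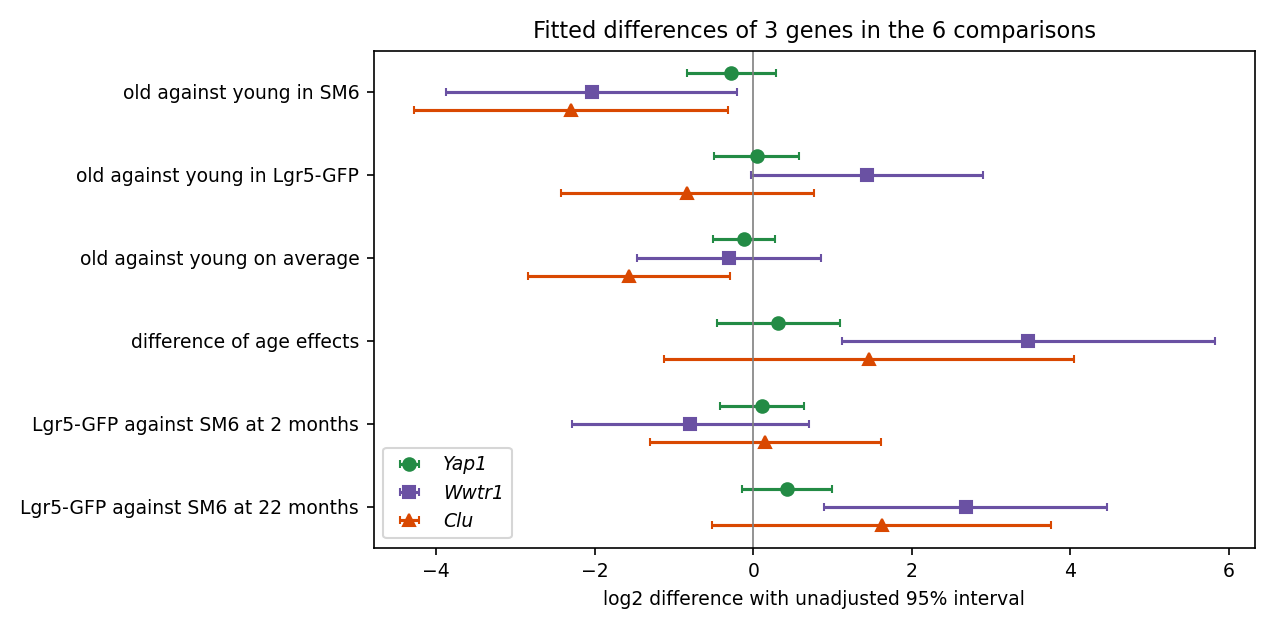
Fitted log2 differences of *Yap1*, *Wwtr1* and *Clu* (points) with unadjusted 95% intervals (bars) in the 6 comparisons. The *Yap1* intervals are the shortest and all include 0, and those that leave out 0 belong to *Wwtr1* and *Clu*, with edgeR adjusted p between 0.232 and 0.311.

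*Anxa3*, an annexin of the fetal and injury programme, was seen mainly in single libraries. SM6 young had 5, 0 and 1 counts, SM6 old 7, 13 and 1, Lgr5-GFP young 1, 7 and 2 and Lgr5-GFP old 2, 0 and 0. Each group but Lgr5-GFP old had both a library above the floor and a library at 0 or 1 count. The summed counts were 4.22 times as high in SM6 old as in SM6 young (21 against 6, 1.65 to 12.8 from counting error alone) and 9.87 times as high in SM6 old as in Lgr5-GFP old (21 against 2, 2.41 to 86.8). The fitted log2 differences, whose errors include the spread between mice, were 1.97 ± 1.13 (edgeR adjusted p = 0.497) and -3.12 ± 1.34 (Lgr5-GFP minus SM6, edgeR adjusted p = 0.466). For age in Lgr5-GFP the value was -1.79 ± 1.47 (edgeR adjusted p = 0.762). Single libraries moved all 3 values of *Anxa3*. The SM6 value ranged from 1.28 (without old replicate 2) to 3.70 (without young replicate 1), the 22-month value from -6.06 (without Lgr5-GFP old replicate 1) to -2.44 (without SM6 old replicate 2), and the Lgr5-GFP value from -4.73 (without old replicate 1) to -0.081 (without young replicate 2). SM6 old was also the group with the highest goblet cell sums given above, and the part of other cell types in the *Anxa3* counts was not tested.

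*Ly6a*, the gene of the Sca-1 antigen that marks fetal-like epithelium after injury, had 4 counts in SM6 old replicate 2 (2.71 CPM) and 1 count in Lgr5-GFP young replicate 3 (0.414 CPM). It was at 0 in the other 10 libraries. Over all libraries this came to 0.260 CPM with an exact Poisson upper limit of 0.606 CPM. *Anxa1* had 1 count each in SM6 young replicates 1 and 2 and in Lgr5-GFP young replicate 3, and was at 0 in all 6 old libraries, which allows up to 0.748 CPM in SM6 old and 0.796 CPM in Lgr5-GFP old at 3 counts over the group. With 2 and 1 counts in the young groups, whose floors were 0.620 and 0.451 CPM, no difference with age was detectable.

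*Msln* was at 0 in every library. At 3 counts this allows up to 0.620 CPM in SM6 and 0.451 in Lgr5-GFP at 2 months, 0.748 and 0.796 CPM at 22 months, and 0.156 CPM over all 12 libraries. The mesothelial markers *Upk3b* and *Wt1* were also at 0, as were *Col3a1*, *Pdgfra*, *Kdr* and *Dcn* of the same list of 12 stromal, endothelial and mesothelial genes. The summed level of that list was 0 to 8.68 CPM.

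*Areg* was detected in 9 of the 12 libraries, with at most 7 counts in any of them. SM6 young had 0, 4 and 1 counts, SM6 old 2, 3 and 1, Lgr5-GFP young 7, 0 and 6 and Lgr5-GFP old 3, 0 and 5. All groups overlapped. Old against young, the fitted log2 fold change was 0.52 ± 1.23 in SM6 (edgeR adjusted p = 0.925) and 0.28 ± 1.09 in Lgr5-GFP (edgeR adjusted p = 0.970), and the intervals, -2.02 to 3.05 and -1.96 to 2.53, take in both a large increase and a large decrease.

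*Ereg* was seen in 2 libraries only, with 3 counts in SM6 young replicate 2 and 4 in Lgr5-GFP young replicate 2. The 6 old libraries had none, which at 3 counts allows up to 0.748 CPM in SM6 old and 0.796 CPM in Lgr5-GFP old. The young totals of 3 and 4 counts correspond to 0.620 CPM (exact Poisson interval 0.128 to 1.81) and 0.602 CPM (0.164 to 1.54), within reach of those limits. These 2 libraries also had the highest summed immune cell markers, 28.8 and 44.4 CPM against 8.94 to 19.9 CPM in the other 10, with 8 of 10 markers detected and *Cd79a* among those at 0. Of these sums, 16.6 and 29.3 CPM came from *Gzma*, a granule protease of cytotoxic lymphocytes, which had its 2 highest counts there (30 and 31). *Ptprc*, which encodes the leukocyte antigen CD45, had 1 count in each and its highest count, 6, in Lgr5-GFP young replicate 1, and *Cd3e* of T cells had 2 and 0 counts. The marker sort named in the labels takes cells that lack CD45, but by the supplementary legend Lgr5-GFP young replicate 2 was isolated with the GFP reporter. The part of these markers in the *Ereg* counts was not tested.

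**Figure D4:**
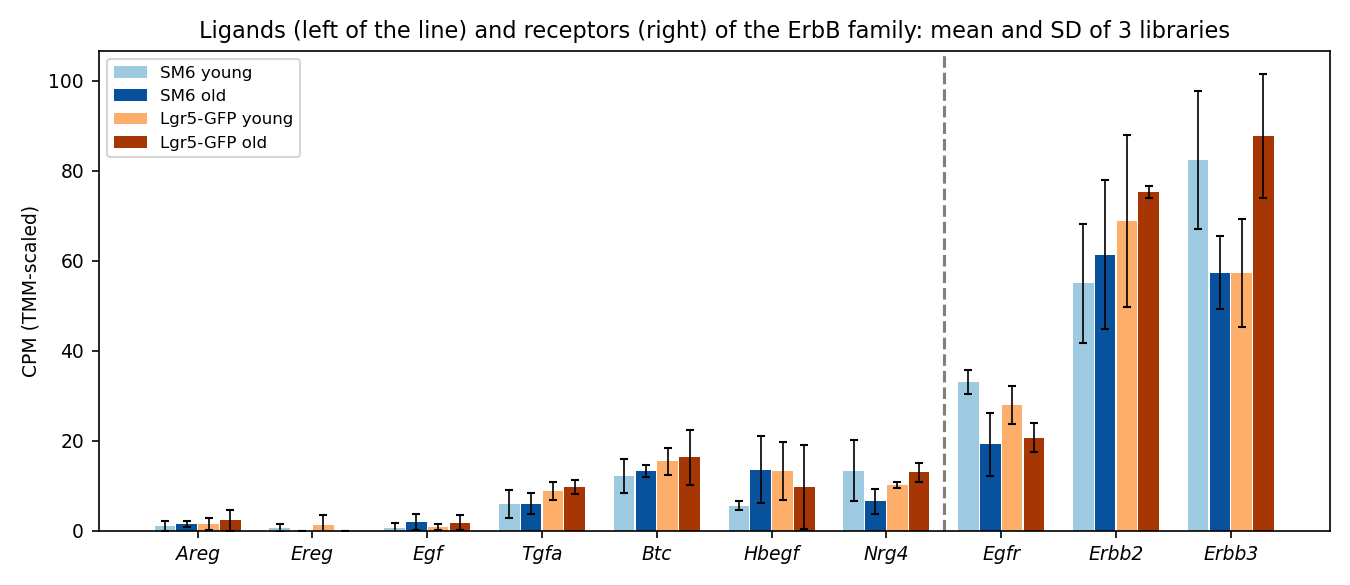
Mean TMM-scaled CPM with SD over 3 libraries of the ErbB ligands and receptors detected, by group, with ligands left of the dashed line and receptors right of it. *Areg* and *Ereg* stayed below 3 CPM in every group mean, and the receptor genes *Egfr*, *Erbb2* and *Erbb3* had group means of 19.2 to 87.7 CPM. Counts are not divided by transcript length, so bars are to be compared within a gene.

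The ligands act through ErbB receptors, of which the genes *Egfr*, *Erbb2* and *Erbb3* were read in every library and *Erbb4* was at 0 in all of them. Of 13 other genes of the ErbB system (ligands, receptors and the regulators *Lrig1* and *Errfi1*), 9 passed the filter on low counts and 0 were called in any comparison. *Egfr*, the receptor bound by amphiregulin and epiregulin and named here after its values were seen, had 32.2, 31.0 and 36.1 CPM in SM6 young and 14.0, 16.3 and 27.2 CPM in SM6 old. In Lgr5-GFP it had 25.5, 25.5 and 32.7 CPM in young and 20.0, 17.9 and 24.1 CPM in old. The ages did not overlap in either isolation, which held for 17.5% of all genes in SM6 and 14.6% in Lgr5-GFP, and the average log2 fold change was -0.62 ± 0.194 (edgeR adjusted p = 0.105). Across the 9 genes the median age effect on the log2 scale was 0.015 in SM6 and 0.081 in Lgr5-GFP, beside -0.0070 and -0.034 over all genes.

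The upstream kinases and the TEAD factors were mostly above the filter. Of 25 genes of the Hippo core and TEAD list, 22 passed the filter, 1 was called lower with age in SM6 (2.42% of all genes were called) and 2 on average (2.66%), and 0 in Lgr5-GFP (0.471%). The called genes were *Taok1* and *Taok3*, which encode TAO kinases that activate the MST kinases. *Taok1* had 129, 130 and 128 CPM in SM6 young and 67.8, 64.5 and 80.7 CPM in SM6 old, with no overlap, and fell by 0.86 on the log2 scale (SE 0.185, edgeR adjusted p = 0.0096). In Lgr5-GFP, where it had 113, 73.7 and 101 CPM in young and 78.6, 97.6 and 76.2 CPM in old, the value was -0.21 (edgeR adjusted p = 0.785). On average *Taok1* fell by 0.54 (edgeR adjusted p = 0.0229) and *Taok3* by 0.68 (edgeR adjusted p = 0.0384). Both average calls were lost when certain single libraries were left out (edgeR adjusted p from 0.0553 to 0.162). For both genes these were SM6 old replicates 1 and 2, Lgr5-GFP young replicate 3 and Lgr5-GFP old replicates 1 and 3, with SM6 young replicate 2 and Lgr5-GFP young replicate 1 for *Taok1* and SM6 young replicate 1 for *Taok3*. Scaling by library totals alone ended both average calls (edgeR adjusted p = 0.0674 and 0.0575), and limma voom (adjusted p = 0.0736) and the robust fit of edgeR (adjusted p = 0.143) ended that of *Taok3*. The SM6 call of *Taok1* was lost without SM6 old replicate 1 (edgeR adjusted p = 0.0691) or replicate 2 (0.0660). The list's median log2 fold change was -0.21 in SM6 and -0.089 in Lgr5-GFP.

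Among 23 known YAP and TAZ target genes, 11 passed the filter, 4 were at 0 in every library and 0 were called in any of the 6 comparisons. *Ccn2* (CTGF), *Ankrd1*, *Fjx1* and *Foxf2* were the 4 at 0, for each of which 3 counts over all libraries would be 0.156 CPM. *Ccn1* (CYR61), a widely used target named here after its values were seen, had 2.43, 4.99 and 7.95 CPM in SM6 young and 2.34, 2.71 and 3.99 CPM in SM6 old. It had 18.3, 36.9 and 11.2 CPM in Lgr5-GFP young and 8.00, 13.0 and 8.68 CPM in Lgr5-GFP old. Its levels in Lgr5-GFP did not overlap those in SM6 at either age (13.7% of all genes at 2 months and 13.5% at 22 months). The differences were 2.05 ± 0.473 (edgeR adjusted p = 0.120) and 1.69 ± 0.580 (edgeR adjusted p = 0.288) on the log2 scale. For age, the values were -0.73 in SM6 (edgeR adjusted p = 0.695) and -1.08 in Lgr5-GFP (edgeR adjusted p = 0.413). The list's medians for age were -0.32 in SM6 and -0.12 in Lgr5-GFP.

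Of the 28 genes of the wider fetal-like or injury list, 16 passed the filter and 6 were at 0 in every library. For age, 1 rose in SM6, 1 rose and 2 fell in Lgr5-GFP, 1 rose on average, and 3 (*S100a6*, *Reg3b* and *Reg3g*) differed between the isolations in their age effect. Over all genes 2.42%, 0.471%, 2.66% and 0.658% were called in these comparisons. *Ly6e*, a Ly6-family gene inducible by interferon, had 289, 144 and 139 CPM in SM6 young and 461, 517 and 548 CPM in SM6 old. In Lgr5-GFP it had 236, 202 and 184 CPM in young and 528, 468 and 469 CPM in old. Every old library was above every young library. *Ly6e* rose by 1.42 ± 0.216 on the log2 scale in SM6 (edgeR adjusted p = 0.000639) and by 1.23 ± 0.215 in Lgr5-GFP (edgeR adjusted p = 0.00782), and the difference between these, -0.18 (-0.80 to 0.44), was not called (edgeR adjusted p = 0.913).

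*Reg3b* and *Reg3g*, which encode secreted antimicrobial lectins, fell with age in Lgr5-GFP. *Reg3g* had 1407, 785 and 679 CPM in Lgr5-GFP young and 86.0, 251 and 82.9 CPM in Lgr5-GFP old (fell by 2.77 on the log2 scale, SE 0.429, edgeR adjusted p = 0.00275). *Reg3b* had 713, 799 and 943 CPM in young and 78.0, 353 and 92.6 CPM in old (fell by 2.23, SE 0.439, edgeR adjusted p = 0.0192). In SM6 the group means went the other way, 173 ± 105 in young and 443 ± 216 CPM in old for *Reg3b* and 165 ± 64.9 and 426 ± 289 CPM for *Reg3g* (n = 3 each), with edgeR adjusted p of 0.111 and 0.0854. At 2 months both were higher in Lgr5-GFP than in SM6, by 2.24 for *Reg3b* (edgeR adjusted p = 0.0393) and 2.53 for *Reg3g* (edgeR adjusted p = 0.00810). The highest Paneth cell sums were in SM6 old replicate 3 (268839 CPM) and Lgr5-GFP young replicates 1 (241989) and 2 (103610). The other SM6 old libraries (43770 and 43416 CPM) lay below SM6 young replicate 1 (67211 CPM). *Reg3g* was highest in Lgr5-GFP young replicate 1 and *Reg3b* in replicate 3, which had the lowest Paneth cell sum of its group (42914 CPM). The part of Paneth cells in these values was not tested. With the share of defensin counts as a covariate, the calls in Lgr5-GFP and at 2 months were lost for both genes (edgeR adjusted p of 0.0590 to 0.0909). Under it the log2 values of *Reg3b* were -2.03 for age in Lgr5-GFP and 2.11 at 2 months, close to those without it, and those of *Reg3g* were -1.77 and 1.71. The robust quasi-likelihood fit also ended these calls (edgeR adjusted p from 0.213 to 0.563), and DESeq2 ended those of *Reg3b* (DESeq2 adjusted p = 0.0806 in Lgr5-GFP and 0.199 at 2 months). The call of *Reg3b* in Lgr5-GFP was also lost without Lgr5-GFP old replicate 1 (edgeR adjusted p = 0.127) or replicate 3 (0.0944). At 2 months, both calls were lost without SM6 young replicate 2 or 3 (edgeR adjusted p of 0.0803 to 0.301), and that of *Reg3b* also without Lgr5-GFP young replicate 2 or 3 (0.128 and 0.0804).

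*S100a6*, a calcium-binding protein gene, had 18.8, 9.98 and 6.50 CPM in SM6 young and 31.2, 38.7 and 18.4 CPM in SM6 old. It had 7.56, 16.1 and 10.3 CPM in Lgr5-GFP young and 2.67, 3.25 and 5.79 CPM in Lgr5-GFP old. At 22 months the isolations did not overlap (13.5% of all genes), and *S100a6* was lower in Lgr5-GFP by a log2 difference of -2.95 ± 0.479 (edgeR adjusted p = 0.00147). Of the 96 genes called in this comparison among all genes, 90 were lower in Lgr5-GFP. The goblet cell sums separated the same groups, at 17307 to 18224 CPM in SM6 old and 3153 to 5495 CPM in Lgr5-GFP old, and their part in the *S100a6* values was not tested. Across the 16 genes the median age effect on the log2 scale was 0.26 in SM6 and -0.67 in Lgr5-GFP. Of the 16 genes, 10 had a positive value in SM6 and 5 in Lgr5-GFP, beside 49.1% and 46.3% of all genes tested.

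Of 10 genes on the annexin list, 4 of which are also on the fetal-like or injury list, 7 passed the filter and 1 was called with age, on average over both isolations (2.66% of all genes). *Anxa8* and *Anxa10* were at 0 in every library, *Anxa9* had 1 count in all, and *Anxa6* had 19 counts over 7 libraries. *Anxa13*, an annexin of intestinal epithelium, had 67.4, 62.1 and 45.5 CPM in SM6 young and 157, 124 and 52.7 CPM in SM6 old. It had 41.6, 32.1 and 46.8 CPM in Lgr5-GFP young and 88.0, 103 and 59.8 CPM in Lgr5-GFP old. Its average log2 fold change was 0.98 ± 0.200 (edgeR adjusted p = 0.00539). Enterocyte markers (8 of 8 detected) summed in SM6 to 1776 to 1912 CPM at 2 months and 2428 to 9083 at 22 months, and in Lgr5-GFP to 1620 to 2904 and 1960 to 11783 CPM, and their part in the *Anxa13* values was not tested. *Anxa2*, named after its values were seen, was lower in Lgr5-GFP than in SM6 at 22 months, with means of 80.3 ± 18.9 and 162 ± 41.9 CPM (n = 3 each), a log2 difference of -1.01 ± 0.220 and an edgeR adjusted p of 0.0252. That call was lost without any of 4 libraries in turn (SM6 old replicates 1 and 2, Lgr5-GFP old replicates 2 and 3), with edgeR adjusted p of 0.111 to 0.161, and with scaling by library totals alone (0.155). Among all genes, 90 of the 96 called at 22 months were lower in Lgr5-GFP.

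**Figure D5:**
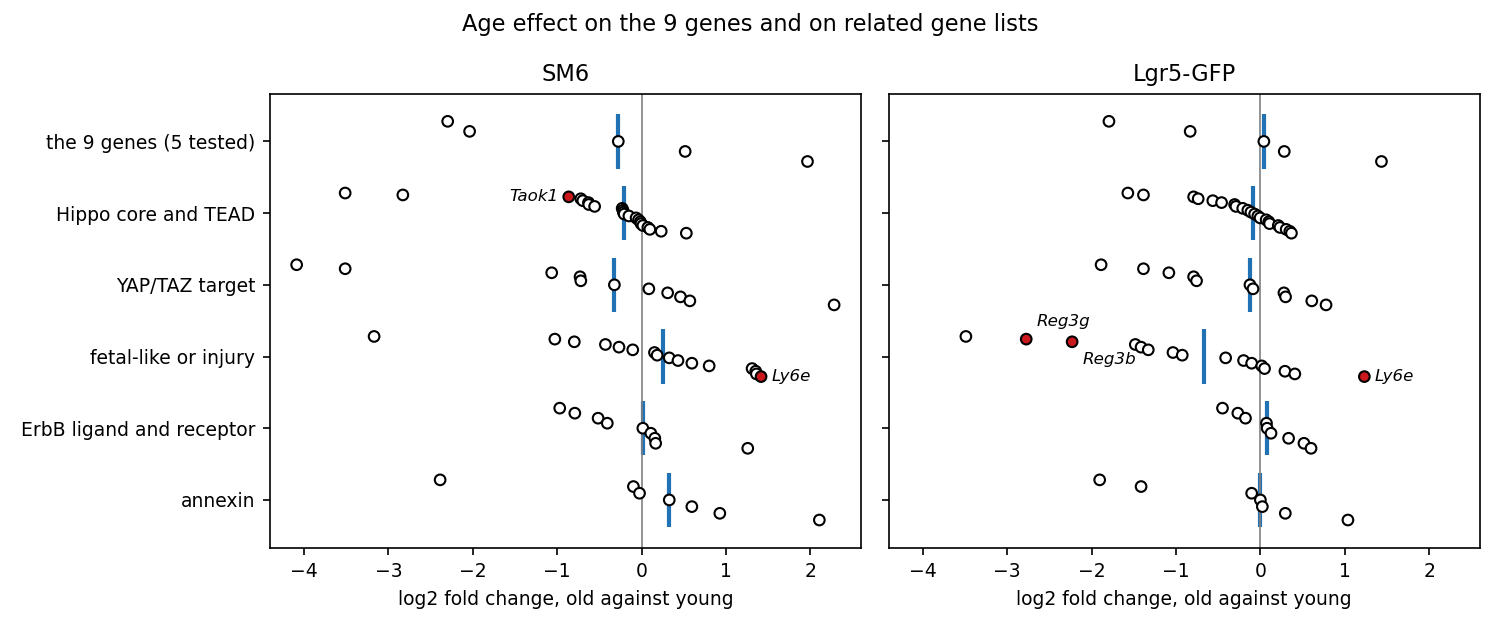
Log2 fold changes of old against young in SM6 (left) and Lgr5-GFP (right) for the tested members and the tested genes of the 5 lists, 1 point a gene, with called genes in red and named, and a blue bar at each list's median. No member is red, and the called genes are *Taok1* and *Ly6e* in SM6 and *Ly6e*, *Reg3b* and *Reg3g* in Lgr5-GFP.

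*Yap1* was the only member with a mean of at least 5 CPM, so its pattern alone was compared with other genes. Over the 12 libraries, the genes with the highest Pearson correlation to it on the log2(CPM + 1) scale, among 9929 genes, were *Ppp2r5a* (0.858), a regulatory subunit of protein phosphatase PP2A, and *Phf2* (0.846), a histone demethylase gene. The 12 libraries share their groups and scaling, and the 2 values are the highest of many.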

How the data were processed

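The authors aligned reads to GRCm38 with STAR 2.4.2a (per the study's methods and processing notes) and counted them over GENCODE exons with featureCounts. The deposited values are these read counts, unscaled. Identifiers (UMIs) were added in library preparation, but whether duplicates were collapsed, and how reads mapping to several genes were treated, is not given in the sources used here. All 12 columns were used and 0 were left out. Positions came from a later GENCODE release on the same build.

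Genes with more than 5 reads and at least 1 CPM in at least 1 library were kept (13368 of 54232). Totals were scaled by TMM, and edgeR 4.0.16 in R 4.3.3 fitted a quasi-likelihood model to all 12 libraries, each group with its own mean (common dispersion 0.0434). Tests were two-sided, adjusted by Benjamini-Hochberg over all genes kept, with a threshold of 0.05. The fits were also run with limma 3.58.1 and DESeq2 1.42.0. The steps were tested on simulated counts with 200 changed genes. The changed genes all lay above 20 CPM, so this did not cover the levels of *Clu*, *Wwtr1*, *Anxa3* and *Areg*. Intervals of summed counts are exact Poisson or conditional binomial intervals at 95%.

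Members, lists and tests were chosen with earlier results of these data known, and the level ranges used for background after the fits had been seen. Beside the members, list genes called in an age comparison or in the difference of age effects were named, up to 6 a list, with the 2 genes most like each member of at least 5 CPM. Each library is 1 mouse. Replicates differed beyond sampling noise in every pair within a group (chi-square per degree of freedom 3.90 to 53.7).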

Additional observations from a re-analysis of the deposited data

Results flagged for a closer look

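Genes are given here because the age effects in the 2 isolations differed from each other by a test of the difference itself (Lgr5-GFP minus SM6, edgeR quasi-likelihood). Only the members and the list genes already named for a call were looked at here, and all 3 belong to the fetal-like or injury list. Over all genes tested, 0.658% were called in this comparison, 7 with a positive and 81 with a negative difference. The difference for *Reg3g* was -4.13 on the log2 scale (SE 0.592, edgeR adjusted p = 0.00124), from an age effect of 1.36 in SM6 and -2.77 in Lgr5-GFP. That of *Reg3b* was -3.58 (SE 0.613, edgeR adjusted p = 0.00554), from 1.35 and -2.23. That of *S100a6* was -2.79 (SE 0.644, edgeR adjusted p = 0.0395), from 1.31 and -1.48. The call of *S100a6* was lost without any of 8 libraries in turn, namely SM6 young replicates 2 and 3, SM6 old replicates 1 and 2, Lgr5-GFP young replicates 2 and 3 and Lgr5-GFP old replicates 1 and 2 (edgeR adjusted p from 0.0670 to 0.135). With the share of defensin counts as a covariate, the difference was -3.29 for *Reg3b*, which stayed called (edgeR adjusted p = 0.0427). It was -2.43 for *Reg3g* (edgeR adjusted p = 0.142) and -2.74 for *S100a6* (edgeR adjusted p = 0.268), which did not. The robust quasi-likelihood fit ended the calls of *Reg3g* (edgeR adjusted p = 0.175) and *Reg3b* (edgeR adjusted p = 0.301) and kept that of *S100a6*. Scaling by library totals alone ended the call of *S100a6* (-2.50, edgeR adjusted p = 0.0664) and neither of the others.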

How the results depend on the processing

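No setting but 1 called a member. Over all alternatives, the members' values kept their direction and side of the threshold 592 times, turned direction 41 times with no call on either side, and gained a call once, for *Clu* on average without Lgr5-GFP old replicate 1 (-2.91, so that 0 to 1 members were called when each library was left out). Scaling by library totals alone moved the median log2 fold change of all genes to -0.16 for age in SM6, 0.16 in Lgr5-GFP, 0.35 for the difference, -0.15 at 2 months and 0.21 at 22 months, and turned *Areg* in the difference (0.096) and *Yap1* (-0.034) and *Clu* (-0.051) at 2 months. The defensin covariate turned *Yap1* (-0.32) and *Areg* (-0.057) for age in Lgr5-GFP, *Anxa3* on average (-0.078), *Yap1* in the difference (-0.28) and *Wwtr1* at 2 months (0.026). Voom turned *Yap1* for age in Lgr5-GFP (-0.010), and DESeq2 (-0.077) and the likelihood ratio test (-0.019) turned *Anxa3* on average. Libraries with the same replicate number showed little shared deviation (18 same-numbered pairs of libraries, correlations of deviations -0.072 to 0.046). Taken over all tested genes, many at low counts, such values cannot exclude a pairing or a shared batch. With the replicate block, 0 members were called, *Anxa3* on average was -0.076 and *Clu* at 2 months -0.20, and the counts of all genes called (331 for age in SM6) stayed within 1.5 times.

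Leaving out each library in turn, *Yap1* ranged from -0.58 to 0.016 for age in SM6, -0.064 to 0.13 in Lgr5-GFP, -0.27 to 0.029 on average and -0.19 to 0.40 at 2 months. *Areg* ranged from -0.038 to 1.92, -0.70 to 0.86 and -0.093 to 1.10 for the same age effects, -1.63 to 0.34 for the difference and -0.45 to 1.12 at 22 months. *Anxa3* ranged from -1.38 to 0.95 on average and -1.08 to 2.37 at 2 months, *Wwtr1* from -1.08 to 0.17 on average, and *Clu* from -1.22 to 2.22 for the difference, -0.62 to 0.42 at 2 months and -1.07 to 2.11 at 22 months. List genes called ranged from 2 to 6 for age in SM6, 2 to 4 in Lgr5-GFP, 2 to 6 on average, 2 to 3 for the difference, 0 to 3 at 2 months and 1 to 3 at 22 months. All genes called ranged from 145 to 404, 26 to 113, 228 to 471, 41 to 98, 6 to 39 and 40 to 120 in the same order.

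List genes called for age in SM6 were 2, and 4 with library totals, 10 without the filter, 8 by the likelihood ratio test, 7 by voom and 5 with only the groups compared. In Lgr5-GFP they were 3, and 5 without the filter and 1 with the robust fit or the defensin covariate. On average they were 4, and 2 at the 0.01 threshold or with library totals. For the difference they were 3, and 5 without the filter and 1 with the robust fit or the covariate. At 2 months they were 2, and 1 at 0.01, 4 without the filter or by the likelihood ratio test, and 0 with the robust fit or the covariate. At 22 months they were 2, and 1 at 0.01 or with library totals and 4 without the filter. All genes called at 0.01 were 143, 20, 177, 22, 6 and 43 in the order above, and without the filter 603, 274, 590, 224, 125 and 228. By the likelihood ratio test they were 527 for age in SM6, 173 in Lgr5-GFP, 158 for the difference, 41 at 2 months and 203 at 22 months. Library totals gave 97 in Lgr5-GFP and 25 at 2 months, the covariate 28 in Lgr5-GFP and 34 for the difference, the robust fit 50 for the difference, and DESeq2 and voom 22 each at 2 months. The causes were not tested. All members but *Yap1* had at most 31 counts in a library. Counting error alone left 1 out of the interval of some summed ratios of *Clu*, *Wwtr1*, *Anxa3* and *Yap1* that no fit across all 12 libraries called.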
